A study of Mus musculus with 9 samples.

Results

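The comparison described here sets 3 libraries of D2A1-d cells that carry the Med4 hairpin shMed4 #4 against 3 libraries of D2A1-d cells that carry a non-targeting control hairpin (NTC). It uses 6 of the 9 libraries of the series and describes 14335 genes that passed a filter on low counts, of 55335 gene identifiers in the files. The members were chosen by their labels alone: all libraries labelled shMed4 #4 and all labelled NTC. D2A1-d is a mouse breast carcinoma line that serves as a model of tumour dormancy, grown here in serum-supplemented medium and otherwise untreated. The labels give the genotype of the NTC libraries as WT and that of the hairpin libraries as Med4 Knockdown. The other 3 libraries carry a second Med4 hairpin, shMed4 #1, and enter the fit and the test of the difference between hairpins. All groups carry an introduced hairpin, so the contrast is between hairpins and not with untransduced cells. The labels number the libraries as biological replicates but do not say whether each number was a separate transduction. The p-values therefore measure the spread between these libraries.

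Mediator is the large complex that carries signals from enhancer-bound transcription factors to RNA polymerase II. Its head and middle modules contact the polymerase, its tail binds activators, and a separable kinase module with CDK8 or CDK19 can keep it from the polymerase. MED4 is a subunit of the middle module. A short hairpin RNA is processed into a small RNA that guides the destruction of matching messages, so it lowers a transcript without deleting the gene, and each hairpin can have unintended targets of its own.

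Med4, a protein-coding gene with the identifier ENSMUSG00000022109.6, lies on chromosome 14, 73510025 to 73518849 (GRCm38). It stood at 29.4, 27.9 and 25 CPM (the reads of a gene relative to all gene-assigned reads, scaled to a common total) in the NTC libraries. In the shMed4 #4 libraries it stood at 8.05, 7.45 and 6.13 CPM. No shMed4 #4 library reached the lowest NTC value, and 26.3% of the control level remained (log2 fold change -1.93, SE 0.126, edgeR adjusted p = 8.44e-16). In the shMed4 #1 libraries the gene stood at 4.97, 4.24 and 4.4 CPM, so more Med4 transcript remained with shMed4 #4 than with shMed4 #1 (log2 difference 0.67, SE 0.178, edgeR adjusted p = 0.00401).

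The 6 libraries held 7572114 to 8480094 reads assigned to genes, and genes with at least 1 read numbered 21303 to 21408 in NTC and 20418 to 20526 in shMed4 #4. Mitochondrial genes took 4.43 to 4.58% of these reads in NTC and 5.81 to 6.04% in shMed4 #4. Leukocyte markers were mixed. Ptprc, the defining one, had 6 reads over the 3 NTC libraries and 2 over the shMed4 #4 libraries, and Cd3e had 0 in each. Several myeloid markers were present: Cd14 had 2876 and 1840 reads, Csf1r 248 and 266, Cd68 116 and 89, S100a8 101 and 15, and Lyz2 90 and 27, and of these Cd14, S100a8 and Lyz2 fell (log2 fold changes -0.67, -2.75 and -1.75). The endothelial marker Pecam1 had 12 and 10 reads. Of 25 leukocyte markers listed, 6 passed the filter, with 0 higher and 4 lower, and their list summed to 133.7 to 158.7 CPM in NTC and 89.6 to 97.7 CPM in shMed4 #4. Of 14 endothelial markers 3 passed, with 2 higher, and the sums were 6.97 to 9.70 and 34.4 to 37.7 CPM. Most of that gain was of Flt1, with 50 and 708 reads, while Cdh5 had 20 and 55 and Eng 137 and 106. Among markers below the filter, Tek had 5 and 2 reads, Vwf 4 and 1 and Kdr 1 and 0. Of 18 stromal markers 10 passed, with 4 higher and 4 lower. The part of other cell types in the results was not tested. Of 28 mammary luminal and basal markers 9 passed, with 7 higher and 1 lower, and several defining ones were absent: Epcam had 0 and 1 reads, Krt5 had 1 and 0, and Esr1 had 1 and 0. A marker that passes only because it is high in 1 group must differ, so these marker counts are no evidence by themselves. Markers in this check with no CPM value were taken from the lists and not by the rule for named genes.

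With shMed4 #4, 55.1% of the genes tested were called, by edgeR's quasi-likelihood test at a Benjamini-Hochberg adjusted p under 0.05. Of these, 3988 were higher (27.8% of the genes tested) and 3907 lower (27.3%), and the median log2 fold change over all genes tested was -0.013. Most calls were of small changes. At least 2-fold, 647 genes rose (4.51%) and 938 fell (6.54%), at least 4-fold 242 rose and 239 fell, and at least 8-fold 93 rose and 65 fell. Among the 2415 genes over 100 CPM, 68.8% were called, but 20 rose and 25 fell by 2-fold or more. Among the 2837 genes between 1 and 5 CPM, 283 rose and 568 fell by that much. The counts of gene groups against NTC that follow are to be read against the shares of 27.8 and 27.3% over all genes tested. In any group, a member that passes the filter only because it is high in 1 group of libraries must differ.

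**Figure D1:**
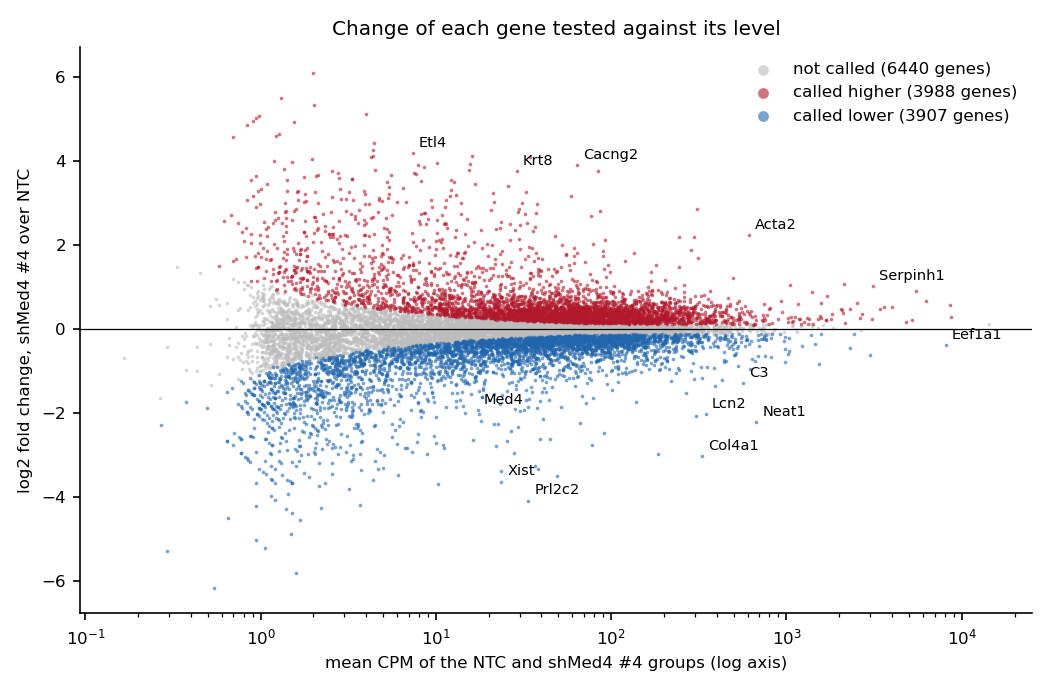
Each point is 1 of the 14335 genes tested, placed by its mean CPM over the NTC and shMed4 #4 groups (log axis) and its log2 fold change of shMed4 #4 over NTC. Red points were called higher (3988), blue points lower (3907) and grey points were not called, and the spread of changes narrows as the level rises.

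When genes averaging under 5 CPM over the 6 libraries are set aside, the 15 largest rises were of genes at 0.752 to 11.5 CPM in the control cells. Below that level limit a change can be larger, as for Mgp, given further on (log2 fold change 4.44). Cacng2, an auxiliary subunit of neuronal AMPA receptors, stood at 6.47, 8.27 and 9.08 CPM in NTC and 118, 126 and 115 CPM in shMed4 #4. Serpinf1, which encodes the secreted factor PEDF, stood at 9.82, 12.4 and 12.2 CPM and then at 166, 155 and 148 CPM. Tesmin, a metallothionein-like protein of the germline, went from 3.23, 4.65 and 3.44 CPM to 61.2, 65.4 and 67.4 CPM. In each of these genes every shMed4 #4 library lay far above every NTC library. The log2 fold changes were 3.91 for Cacng2 (SE 0.101, edgeR adjusted p = 2.96e-28), 3.77 for Serpinf1 (SE 0.082, edgeR adjusted p = 1.22e-30) and 4.10 for Tesmin (SE 0.119, edgeR adjusted p = 1.18e-26).

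Krt8, a keratin of simple epithelia, rose from 3.93 ± 0.408 to 53.9 ± 3.33 CPM (mean ± SD, n = 3 in each group, as for all such values below). Flt1, the receptor VEGFR1, rose from 2.09 ± 0.322 to 29 ± 2.36 CPM. Car12, a membrane-bound carbonic anhydrase, rose from 1.93 ± 0.244 to 29.5 ± 0.923 CPM. The matrix-degrading enzyme Adamts5 rose from 1.09 ± 0.0943 to 16 ± 1.88 CPM, and the membrane protease Adam19 rose from 1.88 ± 0.337 to 22.4 ± 0.621 CPM. Rbms3, an RNA-binding protein, rose from 1.21 ± 0.161 to 19.1 ± 1.96 CPM, and the kinesin heavy chain Kif5c rose from 1.05 ± 0.101 to 14 ± 1.14 CPM. The rest of the 15 largest rises were Etl4 (log2 fold change 4.19), the arsenic methyltransferase As3mt (3.92), Efs (3.69), Mum1l1 (3.68) and the orphan receptor Gprc5c (3.52).

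Under the same limit, the 15 largest falls began from 9.02 to 585 CPM. Falls below that limit are not in this ranking. One is of Cxcl12, named after its values were seen, with 50 reads over the NTC libraries and 1 over the shMed4 #4 libraries. Col4a1 and Col4a2 encode the chains that form the common type IV collagen of basement membranes. Col4a1 stood at 583, 592 and 579 CPM in NTC and at 68.2, 76.7 and 70.1 CPM in shMed4 #4. Col4a2 stood at 334, 328 and 320 CPM and then at 39.9, 43.5 and 40.9 CPM. The NTC libraries of each gene differed by a few percent, and the shMed4 #4 libraries kept 12.3% of Col4a1 and 12.7% of Col4a2 (log2 fold changes -3.03 and -2.98, SE 0.0556 and 0.0589, edgeR adjusted p = 7.46e-33 and 5.19e-32). These genes lie head to head on chromosome 8. In RefSeq on GRCm38.p6 the transcript start of Col4a1, on the minus strand, is at 11312826 and that of Col4a2, on the plus strand, at 11312805, which is 21 bases apart. The tested genes around them had medians of 0.081 and 0.093.

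Prl2c2 and Prl2c3, which encode the prolactin-like growth factors called proliferins, fell from 63.6 ± 6.41 to 3.73 ± 0.689 CPM and from 19.2 ± 1.86 to 1.47 ± 0.422 CPM. They are close copies, and reads with no unique place were not assigned to genes, so the split between them is uncertain. Prune2 fell from 90.1 ± 1.13 to 7.98 ± 1.5 CPM. The atypical cadherin Fat4 fell from 69.5 ± 2.78 to 6.84 ± 1.3 CPM, and Cdh11, a cadherin of mesenchymal cells, fell from 42.7 ± 3.38 to 4.09 ± 0.913 CPM. Ephb2, a receptor tyrosine kinase for ephrins, fell from 66.9 ± 2.77 to 6.92 ± 1.24 CPM. Serpine2, a secreted inhibitor of thrombin and plasminogen activators, fell from 19.6 ± 2.04 to 2.74 ± 0.703 CPM, and Nkd2, an inhibitor of Wnt signalling, fell from 9.02 ± 1.24 to 1.11 ± 0.133 CPM. The rest of the 15 largest falls were Dpep3 (log2 fold change -3.49), the zinc-finger gene Zfp704 (-2.96), the guanylate-binding protein Gbp9 (-2.83), the homeodomain factor Lmx1b (-2.83) and Xist. Xist, the long noncoding RNA that coats the inactive X chromosome, stood at 47, 45.5 and 38.2 CPM in NTC, at 2.81, 2.61 and 5.03 CPM in shMed4 #4 and at 56.7, 40.6 and 55.1 CPM in shMed4 #1. The 395 tested genes of the X chromosome had a median log2 fold change of -0.0043, with 142 higher and 119 lower. Of these genes 66.1% were called, against 55.1% of all genes tested. The median hides local shifts: the neighbours of Med14 and Timp1, both on the X, had medians of 0.50 and 0.50. Those of Xist and Mum1l1, also on the X, had -0.19 and -0.12.

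**Figure D2:**
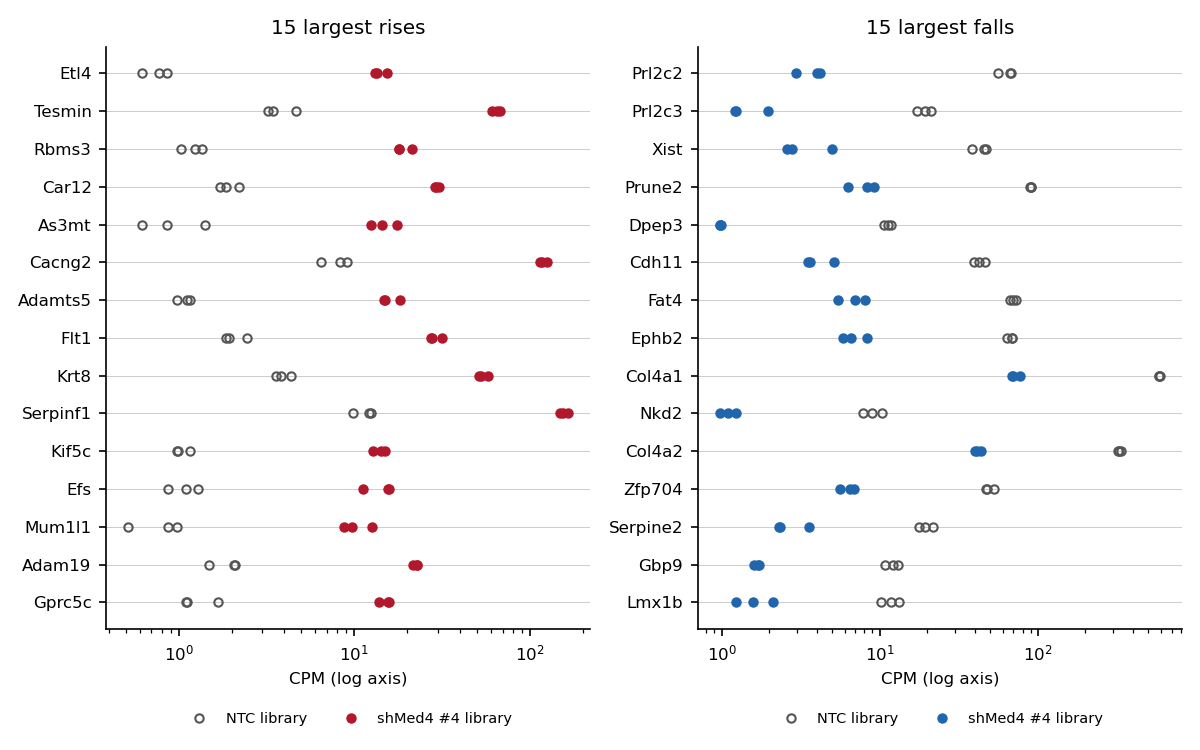
CPM on a log axis of the 15 genes with the largest rises (left) and the 15 with the largest falls (right), with 1 open circle for each of the 3 NTC libraries and 1 filled circle for each of the 3 shMed4 #4 libraries. The groups do not overlap in any of the 30 genes, which the rule that chose them required.

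A few genes went between silence and detection. In 7 protein-coding genes no NTC library had a read while each shMed4 #4 library had at least 5. Dppa2, a gene of pluripotent cells, had 13, 16 and 9 reads, which is at least 11.8-fold higher when NTC is set to a floor of 3 reads over the group. Sncg, gamma-synuclein, had 15, 5 and 10 reads (at least 9.35-fold higher), and Nos1, neuronal nitric oxide synthase, had 8, 7 and 11 (at least 8.1-fold higher). The others were the nuclear receptor Nr1i2, Cst7, Ppp1r3b and Gm773, at least 5.61-fold to 7.79-fold higher. In the reverse direction, 1 protein-coding gene was at 0 reads in every shMed4 #4 library and at 5 or more in each NTC library: Pak3, a p21-activated kinase, with 10, 6 and 10 reads in NTC (at least 9.27-fold lower). These 8 genes were chosen by their counts and not by the rule for named genes. With 38 reads at most over a group, they are at the edge of what this depth can show.

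In absolute reads the largest gains were of mitochondrially encoded subunits and secretory-pathway chaperones. mt-Nd5, a subunit of respiratory complex I, rose from 3782 ± 157 to 7117 ± 101 CPM, and mt-Nd6 rose from 1377 ± 31.9 to 2892 ± 204 CPM. Serpinh1 (HSP47), the collagen-specific chaperone of the endoplasmic reticulum, stood at 2040, 2062 and 2089 CPM in NTC and 4327, 4223 and 3982 CPM in shMed4 #4. The largest losses were of Eef1a1, the elongation factor that brings aminoacyl-tRNA to the ribosome (from 9124 ± 431 to 7030 ± 293 CPM), the ferritin heavy chain Fth1 (from 3650 ± 215 to 2379 ± 166 CPM) and Neat1. Neat1, the noncoding RNA that scaffolds paraspeckles, stood at 1157, 1115 and 1033 CPM in NTC and at 216, 229.9 and 267 CPM in shMed4 #4 (log2 fold change -2.21, edgeR adjusted p = 1.29e-26). The intermediate filament gene Vim fell from 1950 ± 25.1 to 1101 ± 32.9 CPM, and beta-actin (Actb) rose from 2863 ± 66.7 to 4006 ± 105 CPM. Neat1 kept 21.6% of its control level, Eef1a1 77%, Fth1 65.2% and Vim 56.5%.

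Of 12 interstitial collagens tested, 7 were higher and 4 lower, with a median log2 fold change of 0.29. Col6a3, a chain of beaded-filament collagen, stood at 74.6, 81.2 and 66.7 CPM in NTC and 467, 609 and 548 CPM in shMed4 #4. Col12a1, a fibril-associated collagen, stood at 86.2, 89.2 and 85.9 CPM and then 360.2, 418 and 421 CPM. Both groups were wide apart, with the shMed4 #4 libraries of Col6a3 the more scattered. Col1a1, a chain of the main fibrillar collagen, rose from 15.5 ± 1.07 to 51.5 ± 2.42 CPM, whereas Col27a1 fell from 35.6 ± 0.749 to 7.38 ± 0.789 CPM.

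Enzymes and chaperones that mature collagen were higher in 13 and lower in 1 of 20 tested (median 0.37). Serpinh1 belongs here, as do Pcolce2, an enhancer of procollagen cleavage, which rose from 25.3 ± 3.11 to 85.7 ± 3.91 CPM, and the crosslinking enzyme Loxl3, which rose from 68.4 ± 1.33 to 128 ± 8.23 CPM. The exception was another lysyl oxidase, Loxl4, which fell from 66.3 ± 5.33 to 28.9 ± 0.456 CPM. Under upper-quartile scaling 3 members were lower in place of 1, and without shMed4 #4 replicate 1 the number was 2.

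Of 19 matricellular and elastic-fibre genes, 10 were higher and 3 lower (median 0.63). Emilin2, a glycoprotein of elastic fibres, rose from 6.11 ± 0.905 to 59 ± 2.17 CPM, Ccn4 (WISP1) rose from 3.59 ± 1.03 to 24.3 ± 0.973 CPM, and the fibulins Fbln1 and Fbln2 rose from 36.2 ± 3.57 to 83.1 ± 2.11 CPM and from 253 ± 11.4 to 477 ± 29.1 CPM. Among 29 matrix proteases and their inhibitors, 14 were higher and 7 lower. The metalloprotease inhibitors Timp1 and Timp3 rose from 49.1 ± 1.68 to 133 ± 7.67 CPM and from 129 ± 4.73 to 358 ± 11.2 CPM, and the membrane protease Adam12 rose from 34.8 ± 3.48 to 106 ± 1.67 CPM. Some 21.3% of the Timp3 exons lie opposite exons on the other strand. The strand setting is not given, so reads from these may not have been told apart. Basement membrane genes were higher in 3 and lower in 5 of 13 (median 0.05), Col4a1 and Col4a2 among the lower: laminin gamma 1 (Lamc1) rose from 196 ± 9.23 to 289.8 ± 21.3 CPM and laminin beta 2 (Lamb2) fell from 81.7 ± 4.79 to 55 ± 1.68 CPM.

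Integrins, the receptors that bind matrix, moved in both directions, with 7 higher and 6 lower of 16. Itgb3, which pairs with the alpha v chain to bind vitronectin, stood at 7.21, 7.23 and 6.26 CPM in NTC and 52.6, 55.4 and 57.2 CPM in shMed4 #4. The common beta chain Itgb1 rose from 985 ± 47.4 to 1809 ± 13.8 CPM, and Itga5, its partner in the fibronectin receptor, rose from 184 ± 5.39 to 296 ± 9.68 CPM. The collagen-binding chain Itga1 fell from 69.5 ± 5.27 to 36.1 ± 1.1 CPM. The median over integrins was 0.039, and under upper-quartile scaling it was -0.0062, so no direction is given for the family.

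Most called contractile genes were higher, as were Krt8 and Krt18. Of 25 smooth muscle and contractile genes, 18 were higher and 3 lower, with a median of 0.32. The lower ones, named after their values were seen, were Tpm2 (-1.27), Myl6 (-0.23) and Flna (-0.13). Flna was not called without NTC replicate 1, NTC replicate 2, shMed4 #4 replicate 1 or shMed4 #4 replicate 3. Smooth muscle alpha-actin, Acta2, stood at 219.5, 198 and 219 CPM in NTC and at 1106, 943 and 959.6 CPM in shMed4 #4. Smooth muscle gamma-actin, Actg2, stood at 107, 105 and 107 CPM and then at 498, 467 and 495 CPM. The lowest shMed4 #4 library was several times the highest NTC library in each. The myosin light chain Myl9 rose from 3.09 ± 0.465 to 24.8 ± 1.7 CPM, and the actin-bundling protein Synpo2 rose from 3.33 ± 0.834 to 19.3 ± 0.792 CPM.

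Of 15 epithelial junction and keratin genes that passed the filter, out of 39 listed, 10 were higher and 3 lower (median 0.37). Krt18, which pairs with Krt8, rose from 20.4 ± 0.71 to 133 ± 9.95 CPM. The desmosomal protein Pkp1 rose from 9.54 ± 1.77 to 64.9 ± 3.65 CPM, and plakoglobin (Jup), shared by desmosomes and adherens junctions, rose from 9.77 ± 0.704 to 56.1 ± 3.45 CPM. Most other members of the list, Epcam among them, stayed below the filter. A member that passes only because it is high in 1 group must differ, so these counts are no evidence by themselves. Mesenchymal transcription factors were higher in 5 and lower in 5 of 16. Prrx1, a homeodomain factor of mesenchyme, rose from 8.52 ± 2.4 to 66.8 ± 5.8 CPM, while Foxc1 and Foxf2 fell from 49.5 ± 2.46 to 34.6 ± 1.73 CPM and from 35.9 ± 1.38 to 25.5 ± 1.2 CPM. Without shMed4 #4 replicate 3 the number of these factors called higher was 3 in place of 5.

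**Figure D3:**
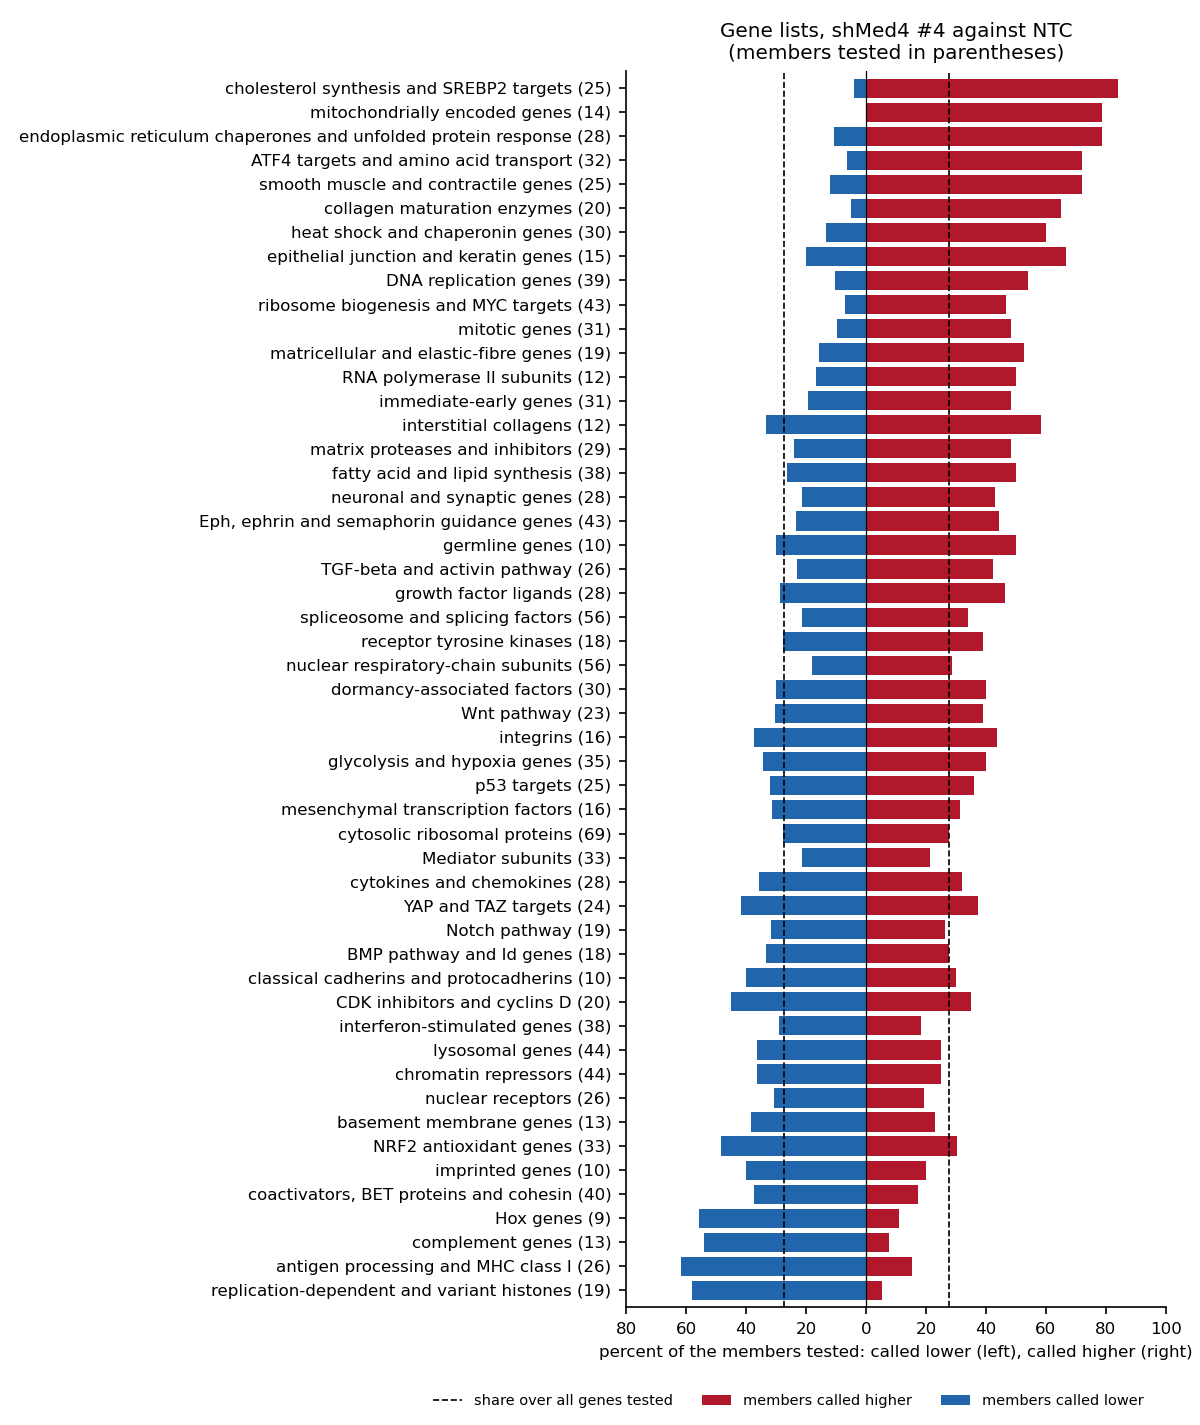
Share of the tested members of each gene list that were called higher (red, right) or lower (blue, left) with shMed4 #4, with the number tested in parentheses. The dashed lines mark the shares over all genes tested, 27.8% higher and 27.3% lower, and lists whose bars pass one line and stop short of the other stand at the top and bottom.

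Among lists with 10 or more tested members, those with the highest shares of rises were cholesterol synthesis, mitochondrially encoded genes and the chaperones of the endoplasmic reticulum (ER). Cells make cholesterol by a chain of enzymes under the membrane-bound factor SREBP2, and of 25 such genes tested 21 were higher and 1 lower, with a median log2 fold change of 0.57. The lower gene was Lpin1 (-0.58, named after its value was seen). Dhcr7, a sterol reductase late in the pathway, stood at 20.8, 23.9 and 21.9 CPM in NTC and at 61.5, 54.6 and 56.9 CPM in shMed4 #4. Hsd17b7, also an enzyme of the pathway, rose from 11.3 ± 0.684 to 30.9 ± 4.3 CPM. The NTC and shMed4 #4 libraries did not overlap in either gene. The sterol regulatory element, TCAC followed after any 1 base by CCAC, was searched on both strands of the RefSeq promoters and was in 1 of the 18 members with a promoter (5.56%; Hmgcs1, named for the motif), against 1.24% of all promoters and 1.38% of tested genes. Fatty acid and lipid genes were higher in 19 and lower in 10 of 38. Fads3, a fatty acid desaturase family member, rose from 11.8 ± 0.111 to 106 ± 3.82 CPM, the stearoyl-CoA desaturase Scd2 rose from 298 ± 10.9 to 698 ± 40.7 CPM, and Acadm, an enzyme of fatty acid oxidation, fell from 66.3 ± 2.9 to 25.7 ± 1.93 CPM.

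ER chaperones fold secreted and membrane proteins, and the unfolded protein response raises them through the sensors IRE1, PERK and ATF6. Of 28 tested genes of this kind 22 were higher and 3 lower, with a median of 0.36. The 3 lower ones, named after their values were seen, were the stress sensor Ern1 (IRE1 alpha, log2 fold change -0.32), Herpud1 (-0.47, with neighbours at a median of -0.78) and Dnajb9 (-0.30). Pdia4, a protein disulphide isomerase, rose from 682 ± 18.8 to 1415 ± 73.1 CPM. Hspa5 (BiP), the main chaperone of the compartment, stood at 2156, 2007 and 1876 CPM in NTC and at 3078, 3099 and 3037 CPM in shMed4 #4. Hsp90b1 (GRP94) rose from 2945 ± 152 to 4249 ± 31.7 CPM, Creld2 rose from 184 ± 8.72 to 338 ± 15.8 CPM, Sdf2l1 rose from 98.5 ± 5.35 to 186 ± 7.27 CPM and the co-chaperone Dnajb11 rose from 269.9 ± 9.66 to 440.2 ± 11.6 CPM. The groups did not overlap for any of these 6 genes, and Pdia4 alone among them passed 2-fold.

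Because ATF6 and its partners act through the ER stress response element in promoters, the RefSeq promoters (GRCm38.p6, 250 bases before to 50 after the start) were searched on both strands for CCAAT followed, after any 9 bases, by CCACG. It was in 8 of the 24 ER genes with a promoter in the table, 33.3%, against 0.119% of all 32851 promoters and 0.172% of the 9870 tested genes with a promoter. The matches are shown with the element in capitals, 5′ to 3′ on the strand of the gene, which reads as the reverse complement in Creld2 and Calr. The motif was chosen with results of these data known, and a match describes letters and not binding.
Hspa5, chr2:34772010-34772058: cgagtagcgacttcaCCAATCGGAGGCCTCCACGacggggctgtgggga
Hsp90b1, chr10:86705623-86705671: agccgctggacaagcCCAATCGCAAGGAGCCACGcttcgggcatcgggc
Creld2, chr15:88819505-88819553: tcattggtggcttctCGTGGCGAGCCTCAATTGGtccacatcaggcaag
Dnajc3, chr14:118937812-118937860: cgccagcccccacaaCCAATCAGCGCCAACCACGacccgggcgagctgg
Pdia6, chr12:17266476-17266524: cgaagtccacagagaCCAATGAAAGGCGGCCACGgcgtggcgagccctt
Canx, chr11:50325785-50325833: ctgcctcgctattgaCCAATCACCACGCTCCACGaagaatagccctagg
Calr, chr8:84847060-84847108: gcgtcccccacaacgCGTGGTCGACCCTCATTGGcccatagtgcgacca
Syvn1, chr19:6046517-6046565: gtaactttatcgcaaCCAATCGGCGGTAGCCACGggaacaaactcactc
Hsp90b1, Canx and Calr are on the minus strand and the other 5 on the plus strand. Of the 8 genes, 7 were higher, with log2 fold changes from 0.18 (Calr, calreticulin) to 0.88 (Creld2), and Syvn1, a ubiquitin ligase of ER-associated degradation, was at -0.0081 (edgeR adjusted p = 0.922). The median was 0.35 over these 8 and 0.31 over the 16 ER genes without the element in this window, of which 11 were higher and 3 lower. The difference between these medians was not tested. Dnajc3, Pdia6, Canx, Calr and Syvn1 are named for the motif and not by the rule for named genes.

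Targets of ATF4, the factor of amino acid shortage and of the PERK branch, were higher in 23 and lower in 2 of 32 (median 0.27). Cth, an enzyme of cysteine synthesis, rose from 22.9 ± 0.899 to 55.4 ± 2.31 CPM, and the leucine transporter subunit Slc7a5 rose from 238 ± 2.09 to 411 ± 15.1 CPM. Mthfd2 of mitochondrial folate metabolism rose from 219 ± 12.2 to 380.5 ± 16.8 CPM, and the serine synthesis enzyme Psat1 rose from 349 ± 18.9 to 581 ± 6.16 CPM. Heat shock and chaperonin genes were higher in 18 and lower in 4 of 30: the small heat shock protein gene Hspb1 rose from 156 ± 5.59 to 306 ± 10.9 CPM, and Hspa1b, an inducible HSP70 gene with a near-identical copy next to it, fell from 49 ± 1.33 to 9.67 ± 0.0988 CPM. NRF2 antioxidant genes leaned the other way, with 10 higher and 16 lower of 33. Aldh3a1, an aldehyde dehydrogenase, fell from 119.6 ± 15.4 to 38.4 ± 3.47 CPM, the glutathione transferase Gstm1 fell from 103 ± 9.66 to 46.4 ± 0.275 CPM, and the quinone reductase Nqo1 fell from 68 ± 0.587 to 32.6 ± 4.49 CPM.

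Most called genes of antigen presentation and complement were lower. MHC class I molecules show peptides cut by the proteasome and pumped into the ER by TAP, and the factor NLRC5 switches on their genes. Of 26 tested genes of this pathway 4 were higher and 16 lower, with a median of -0.66. The 4 higher ones, named after their values were seen, were Cd74 (log2 fold change 2.73), the immunoproteasome subunit Psmb8 (1.74), Psme1 (0.56) and Tapbpl (0.30). The heavy chain H2-D1 stood at 455, 449.6 and 471 CPM in NTC and at 215, 209 and 191 CPM in shMed4 #4. Tap2, a subunit of the transporter, fell from 41.2 ± 4.17 to 17.3 ± 1.44 CPM, and the heavy chain H2-Q4 fell from 83.4 ± 5.42 to 37.3 ± 3.23 CPM. Class I genes are near-copies of each other, so values of single H2 genes are uncertain. Nlrc5 fell from 45.2 ± 1.24 to 8.31 ± 0.437 CPM. It lies on a stretch of chromosome 8 where the tested neighbours had a median log2 fold change of -0.78, and its own change was -2.44, or -1.66 with that median subtracted.

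Of 13 complement genes, 1 was higher and 7 lower (median -0.70). The single higher gene, Cfp (properdin, log2 fold change 0.45, named after its value was seen), was not called without NTC replicate 2, NTC replicate 3, shMed4 #4 replicate 1 or shMed4 #4 replicate 2, nor under upper-quartile scaling or DESeq2. C3, the central component, stood at 720.5, 856 and 834 CPM in NTC and at 326, 341 and 322 CPM in shMed4 #4. The classical-pathway protease genes C1s1 and C1ra fell from 414 ± 36.9 to 182 ± 4.95 CPM and from 106 ± 10.2 to 62 ± 1.47 CPM, and the lectin-pathway protease gene Masp1 fell from 149 ± 5.44 to 54.5 ± 2.57 CPM. Lcn2, which encodes the iron-scavenging acute-phase protein lipocalin 2, fell from 555 ± 32.2 to 137 ± 11.7 CPM. Cytokine and chemokine genes were split, with 9 higher and 10 lower of 28. Ccl2, a monocyte attractant, fell from 37.7 ± 2.64 to 13.5 ± 1.9 CPM, the neutrophil attractant Cxcl5 fell from 323 ± 3.78 to 165 ± 3.17 CPM, and the macrophage growth factor Csf1 fell from 839 ± 6.79 to 539.5 ± 14.6 CPM.

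Interferon-stimulated genes had the widest gap between the medians of the 2 hairpins among the 56 lists. Against NTC, 7 of 38 were higher and 11 lower with shMed4 #4, with a median of -0.059. That median was 1.06 with shMed4 #1, measured against the same NTC libraries. Tested directly, 36 of the 38 were lower with shMed4 #4 than with shMed4 #1 and 0 were higher, where 28% of all genes tested differed between the hairpins in either direction. The filter used all 3 groups, so a member that passes only because it is high with shMed4 #1 must be lower here. This count and the gap between medians are therefore no evidence by themselves. Gbp3, a guanylate-binding protein, stood at 7.34, 6.59 and 7.73 CPM in NTC, 2.32, 1.99 and 1.96 CPM in shMed4 #4 and 20.4, 18.4 and 16.4 CPM in shMed4 #1. Gbp2 stood at 20.8, 21.3 and 21.2 CPM, 5.12, 7.95 and 6.38 CPM and 23.7, 28.2 and 23.6 CPM in the same order. Both genes were below every control library with shMed4 #4 and above every one with shMed4 #1. The Gbp2 difference between shMed4 #1 and NTC was not called (log2 fold change 0.254, edgeR adjusted p = 0.0516). Ifit2, an interferon-induced RNA-binding protein, fell from 37.4 ± 1.96 to 15.2 ± 1.68 CPM. The antiviral membrane protein gene Ifitm3 rose against NTC, from 55.6 ± 3.61 to 132 ± 6.76 CPM. It was still lower with shMed4 #4 than with shMed4 #1 (log2 difference -0.42, edgeR adjusted p = 4.6e-07).

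Interferon-responsive promoters often hold a pair of TTTC boxes. A TTTC followed, after any 2 bases, by another TTTC was searched on both strands in the same promoters and was in 15 of 26 members with a promoter, 57.7%, against 3.44% of all promoters and 3.63% of tested genes. Windows are shown for the 6 members with the element and the largest difference between hairpins, with the match in capitals, read as the reverse complement in Oas3 and Isg15. They were chosen after their values were seen.
Gbp3, chr3:142559984-142560023, plus strand: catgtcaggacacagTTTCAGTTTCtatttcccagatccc
Oas3, chr5:120777710-120777749, minus strand: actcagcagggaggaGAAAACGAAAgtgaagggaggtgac
Gbp7, chr3:142530268-142530307, plus strand: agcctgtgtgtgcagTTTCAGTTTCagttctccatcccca
Ifit1, chr19:34640770-34640809, plus strand: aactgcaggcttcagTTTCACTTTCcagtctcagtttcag
Gbp2, chr3:142620589-142620628, plus strand: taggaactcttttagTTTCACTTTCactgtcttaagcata
Isg15, chr4:156200872-156200911, minus strand: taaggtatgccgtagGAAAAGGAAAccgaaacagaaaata
The log2 differences between shMed4 #4 and shMed4 #1 were -3.13 for Gbp3, -3.01 for the oligoadenylate synthetase Oas3, -2.29 for Gbp7, -2.18 for Ifit1, -1.96 for Gbp2 and -1.79 for the ubiquitin-like modifier Isg15. The Isg15 change against NTC, -0.42, was not called without NTC replicate 1, NTC replicate 3 or shMed4 #4 replicate 3 (log2 fold change -0.41, -0.40 and -0.25), nor by DESeq2. Against NTC the values of Oas3 and Ifit1 with shMed4 #4 were -0.62 and -0.64, which did not pass the test (edgeR adjusted p = 0.151 and 0.0727). Among members with the element, 3 were higher and 4 lower with shMed4 #4 against NTC, and among the 11 without it 2 were higher and 5 lower.

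**Figure D4:**
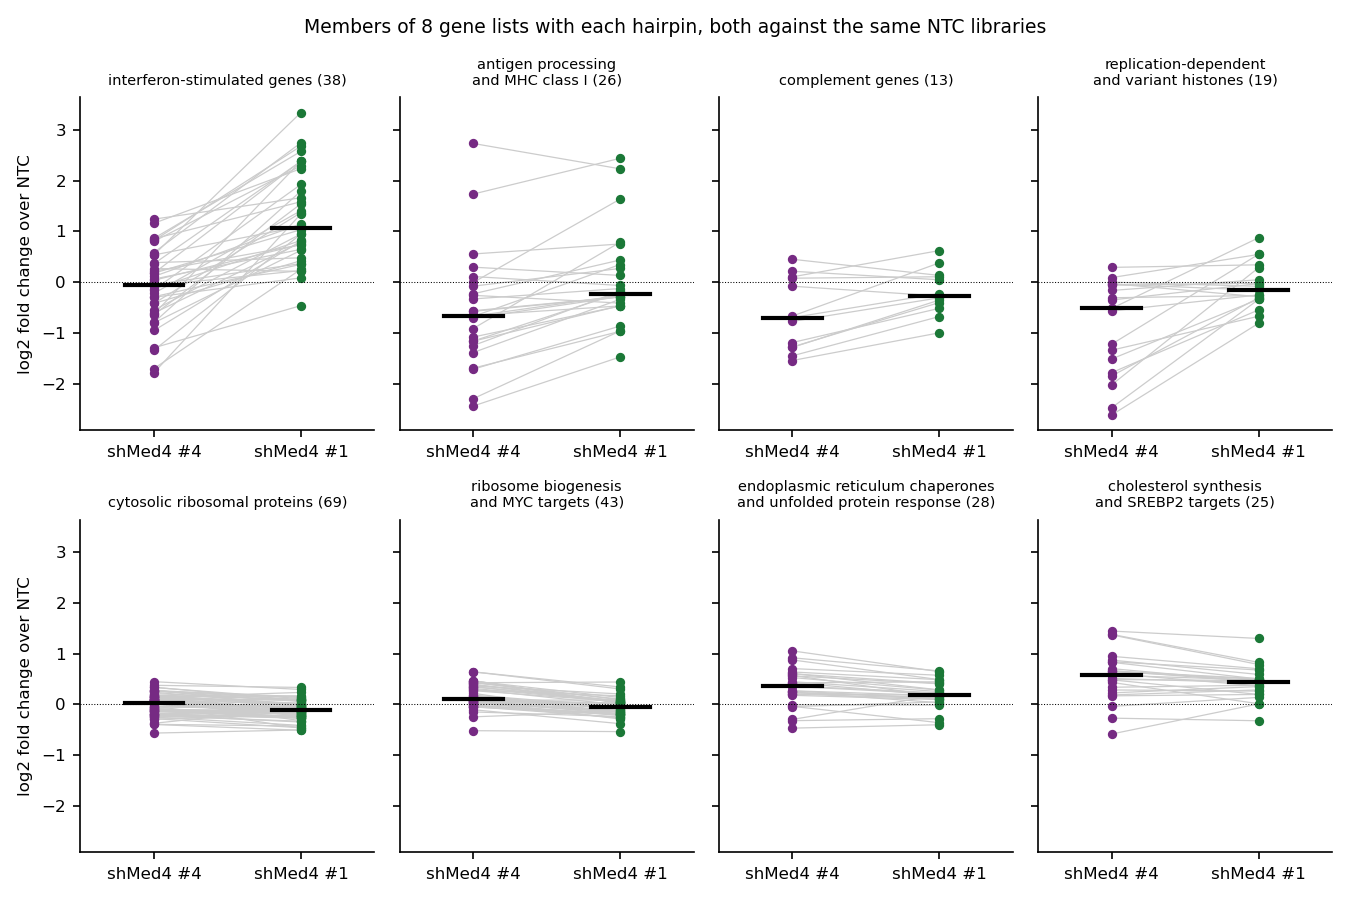
Log2 fold change over NTC of each tested member of 8 gene lists, with shMed4 #4 on the left and shMed4 #1 on the right of each panel; grey lines join the values of a gene and black bars are medians. Both columns use the same 3 NTC libraries, and the interferon-stimulated genes have medians of -0.059 and 1.06.

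Of 43 Eph, ephrin and semaphorin guidance genes 19 were higher and 10 lower. The guidance cue Ntn1 (netrin 1) stood at 111, 110.2 and 108 CPM in NTC and at 24.1, 23 and 22.1 CPM in shMed4 #4. Slit2, a repulsive cue, fell from 44.9 ± 3.71 to 11.9 ± 0.719 CPM, and the ephrin Efnb2 rose from 121 ± 4.04 to 217 ± 6.07 CPM. In the Wnt pathway 9 of 23 genes were higher and 7 lower: the nuclear factor Tcf7 rose from 7.28 ± 1.39 to 39 ± 3.66 CPM, the co-receptor Lrp5 rose from 16.1 ± 1.75 to 44.9 ± 2.68 CPM, the receptor Fzd6 rose from 6.43 ± 1.91 to 22.7 ± 0.448 CPM and the receptor Fzd7 fell from 111 ± 6.68 to 59.7 ± 4.7 CPM. In the Notch pathway the ligand Jag1 rose from 25.6 ± 2.67 to 97.6 ± 7.15 CPM and the target gene Hes1 rose from 3.51 ± 0.205 to 9.42 ± 0.513 CPM, while Hey1, also a target, fell from 60.1 ± 2.5 to 18.3 ± 1.02 CPM. Counts there were 5 higher and 6 lower of 19, close to the shares over all genes.

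In the TGF-beta and activin pathway 11 of 26 were higher and 6 lower. The ligand Tgfb1 rose from 82.9 ± 7.36 to 128 ± 5.2 CPM, the latency protein Ltbp2 fell from 565 ± 14.3 to 219.8 ± 6.1 CPM, and its relative Ltbp1 rose from 169.5 ± 7.55 to 263 ± 19.1 CPM. Among BMP genes the targets Id1 and Id2 fell from 115 ± 4.14 to 74.2 ± 6.81 CPM and from 80.3 ± 3.9 to 55.4 ± 7.24 CPM, and the receptor Acvrl1 (ALK1) rose from 3.66 ± 0.851 to 19.6 ± 1.72 CPM. Among receptor tyrosine kinases Fgfr1 rose from 105 ± 3.24 to 233 ± 12.4 CPM, Pdgfra fell from 128 ± 4.41 to 60 ± 6.56 CPM and Axl fell from 523 ± 22.9 to 359 ± 6.38 CPM. Of 28 growth factor ligands 13 were higher and 8 lower. The EGF receptor ligand Areg (amphiregulin) stood at 8.33, 10.6 and 8.47 CPM in NTC and 47.3, 47.8 and 46.5 CPM in shMed4 #4, and the related Ereg rose from 43.2 ± 2.81 to 90.4 ± 1.35 CPM.

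Genes of DNA replication were higher in 21 and lower in 4 of 39, with a median of 0.18 and none past 2-fold. Cyclin E1 (Ccne1) rose from 27.2 ± 3.1 to 52.1 ± 1.2 CPM, cyclin E2 (Ccne2) rose from 50.5 ± 1.99 to 77 ± 5.54 CPM, and Rrm1, the large subunit of ribonucleotide reductase, rose from 219 ± 8.74 to 304 ± 4.28 CPM. Mitotic genes were higher in 15 and lower in 3 of 31, again with none past 2-fold. Plk1, a mitotic kinase, rose from 73.5 ± 3.77 to 114 ± 2.04 CPM, the factor Foxm1 rose from 159 ± 5.99 to 230.3 ± 6.16 CPM, separase (Espl1) rose from 74.9 ± 3.24 to 113 ± 1.81 CPM and the checkpoint gene Mad2l1 rose from 151 ± 6.36 to 218 ± 8.03 CPM. The number lower was 1 without NTC replicate 1, NTC replicate 2 or shMed4 #4 replicate 1, and 6 without NTC replicate 3. The median over mitotic genes was 0.042, and -0.0035 under upper-quartile scaling.

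Genes that brake the cell cycle moved in both directions. Of 20 CDK inhibitors, cyclins D and related genes, 7 were higher and 9 lower. Cdkn1b (p27) stood at 220.3, 233 and 222 CPM in NTC and at 133, 128 and 134 CPM in shMed4 #4. Cdkn2c (p18) fell from 95.2 ± 0.183 to 46.4 ± 5.08 CPM, whereas Cdkn2a (0.50 on the log2 scale), Cdkn2b (0.39), Cdkn2d (0.32) and Cdkn1a (0.30), named after their values were seen, were higher. Cdkn2a kept its call in every alternative run, while Cdkn1a lost it without NTC replicate 1, Cdkn2b without NTC replicate 1 or shMed4 #4 replicate 1, and Cdkn2d without NTC replicate 2, NTC replicate 3 or shMed4 #4 replicate 1 (log2 fold changes of 0.18 to 0.30 in these). With DESeq2, Cdkn2b and Cdkn2d were not called either, at log2 fold changes of 0.40 and 0.32 (DESeq2 adjusted p = 0.164 and 0.0556). Cyclin D2 (Ccnd2), which promotes entry into the cycle, fell from 44.1 ± 4.43 to 6.97 ± 0.818 CPM. The pocket protein gene Rbl2 (p130) fell from 77.2 ± 1.42 to 33.3 ± 3.44 CPM, on a stretch of chromosome 8 where neighbours had a median of -0.75, and its log2 fold change of -1.21 was -0.46 with that subtracted. Of 25 p53 targets 9 were higher and 8 lower, with falls of Sesn1 (from 60.2 ± 6.03 to 22.7 ± 1.49 CPM) and of the death receptor Fas (from 67.2 ± 3.69 to 30.7 ± 1.79 CPM) and a rise of Phlda3 (from 17.5 ± 1.94 to 29.7 ± 2.63 CPM).

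Listed factors of tumour dormancy were split, 12 higher and 9 lower of 30. Hbp1, a repressor of growth genes, fell from 117 ± 3.97 to 59.4 ± 1.23 CPM, and 24.6% of its exons lie opposite exons on the other strand. Il6st (gp130), the shared receptor chain of the IL-6 family, stood at 249, 274 and 266 CPM in NTC, 133, 145 and 146 CPM in shMed4 #4 and 260.4, 262 and 267 CPM in shMed4 #1. It was lower with shMed4 #4 than with shMed4 #1 (log2 difference -0.90, edgeR adjusted p = 4.57e-16). Bhlhe40, a clock-linked repressor, rose from 47.8 ± 3.69 to 94.5 ± 2.83 CPM.

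Ribosome assembly genes were higher in 20 and lower in 3 of 43, by small amounts (median 0.099). Bop1, an assembly factor of the large subunit, rose from 80.7 ± 5.68 to 126 ± 7.21 CPM, the rRNA methyltransferase gene Nop2 rose from 128 ± 7.65 to 177 ± 5.58 CPM, spermidine synthase (Srm) rose from 104 ± 7.18 to 144 ± 5.13 CPM and Polr1a, the largest subunit of RNA polymerase I, rose from 140.4 ± 5.9 to 189 ± 2.43 CPM. Tested directly, 28 of the 43 were higher with shMed4 #4 than with shMed4 #1 and 0 lower. In that contrast 2029 of all 14335 genes tested were higher and 1988 lower. Among 69 cytosolic ribosomal protein genes, by contrast, 19 were higher and 19 lower than in NTC, at the share of all genes. Leaving out NTC replicate 3 took the number lower to 12. Against shMed4 #1, 28 were higher and 1 lower, to be read against the same counts over all genes.

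Among 14 mitochondrially encoded genes 11 were higher and 0 lower, with a median of 0.50. mt-Nd1 rose from 6875 ± 204 to 10230 ± 717 CPM and mt-Cytb, of complex III, rose from 7801 ± 275 to 9555 ± 382 CPM. Nuclear genome copies of these genes make their counts uncertain. The part of the higher mitochondrial share of reads in other results was not tested. The nuclear genes for respiratory-chain subunits were higher in 16 and lower in 10 of 56, with a median of 0.038. Without all mitochondrial genes in the fit, 4012 genes were higher and 3875 lower.

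Of 12 RNA polymerase II subunits 6 were higher and 2 lower (median 0.13), with a rise of Polr2f (from 39.5 ± 2.46 to 56.9 ± 3.73 CPM) and a fall of Polr2a (from 286 ± 15.8 to 235 ± 7.05 CPM), the largest subunit. Of 33 Mediator subunits 7 were higher and 7 lower, Med4 included, and 19 were not called. At least 2-fold, 1 rose and 2 fell, Med4 being only 1 of these 2. The other lower subunits are not named here. Med14, the backbone subunit, rose from 41.8 ± 5.62 to 77.9 ± 2.79 CPM, Med30 rose from 20.7 ± 1.68 to 42.5 ± 6.13 CPM, and Ccnc (cyclin C), which pairs with the Mediator kinase, rose from 50.1 ± 0.312 to 68.3 ± 3.77 CPM. The neighbours of Med14 and Med30 had medians of 0.50 and 0.42, and with these subtracted the log2 changes of 0.90 and 1.04 were 0.40 and 0.62. Coactivators, BET proteins and cohesin were higher in 7 and lower in 15 of 40, and the methyltransferase gene Kmt2c fell from 50.3 ± 2.18 to 25.3 ± 3.12 CPM. The number higher was 4 without NTC replicate 2. Chromatin repressors were higher in 11 and lower in 16 of 44, with a fall of the Polycomb gene Pcgf5 (from 47.7 ± 2.3 to 17.5 ± 1.83 CPM) and a rise of the heterochromatin protein gene Cbx3 (from 180 ± 12.4 to 255 ± 9.02 CPM).

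Of 19 histone genes that passed the filter, out of 39 listed, 1 was higher and 11 lower, with a median of -0.52. The higher one was the linker histone gene H1f0 (0.29, named after its value was seen). Hist2h2be fell from 18.4 ± 1.43 to 6.43 ± 0.67 CPM, Hist2h4 fell from 3.25 ± 0.693 to 0.572 ± 0.183 CPM, and H3f3a, a replication-independent H3.3 gene, fell from 345 ± 6.98 to 233 ± 7.09 CPM. Hist1h1c, a linker histone gene, stood at 6.47, 8.65 and 8.47 CPM in NTC, 3.54, 3.35 and 3.19 CPM in shMed4 #4 and 10.8, 11.7 and 11.9 CPM in shMed4 #1. Histone genes are close copies, and how their messages, most of which lack a poly(A) tail, were captured is not given in the sources used here. Of 9 Hox genes tested 1 was higher and 5 lower. All 5 that fell are in the HoxA cluster: Hoxa7 fell from 45.7 ± 0.622 to 22.9 ± 1.69 CPM, Hoxa5 fell from 47.7 ± 1.6 to 25.2 ± 1.71 CPM and Hoxa4 fell from 7.1 ± 1.13 to 3.28 ± 0.292 CPM. A member that passes only because it is high in 1 group must differ, so the histone and Hox counts are no evidence by themselves.

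Genes of tissues that a carcinoma does not usually show were among the rises. Of 28 neuronal and synaptic genes that passed the filter, out of 72 listed, 12 were higher, Cacng2 first among them, and 6 lower. The adhesion molecule Ncam1 stood at 35.4, 34.5 and 33.4 CPM in NTC and 152, 151 and 149.8 CPM in shMed4 #4, and Syn3, a synapsin, rose from 58.4 ± 3.62 to 181 ± 9.32 CPM. Some 14.1% of the Syn3 exons lie opposite exons on the other strand. Syn3 also spans Timp3, which rose as well, so the Syn3 value is uncertain. Of 10 germline genes that passed the filter, out of 49 listed, 5 were higher and 3 lower. Tesmin rose, as did Syce2, a part of the synaptonemal complex (from 3.15 ± 0.787 to 13.8 ± 1.18 CPM). A member that passes only because it is high in 1 group must differ, so the neuronal and germline counts are no evidence by themselves. Peg3, an imprinted zinc-finger gene, rose from 2.42 ± 0.203 to 20.6 ± 1.77 CPM, and Igf2r, the imprinted receptor that clears IGF2, fell from 42.7 ± 2.22 to 18.7 ± 2.06 CPM. Mgp, a mineralization inhibitor of cartilage, rose from 0.375 ± 0.214 to 8.47 ± 1.23 CPM.

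The balance of calls differed in size between annotated kinds of gene, which was not tested. Of 365 genes annotated as lincRNA, 46 were higher and 168 lower, with a median log2 fold change of -0.48, while of 11616 protein-coding genes 3654 were higher and 3097 lower, with a median of 0.015. At 5 CPM or more, 126 lincRNAs remained, with 22 higher, 61 lower and a median of -0.26. Genes of the class TEC, whose models await experimental evidence, had 33 higher and 121 lower of 341, and genes of the class processed transcript 31 and 105 of 267. Antisense genes had 159 higher and 229 lower of 934. The strand setting is not given, so their reads may not have been told apart from those of their partners. At 5 CPM or more the balance of antisense genes was the other way, with 111 higher and 95 lower of 461 (median -0.012), TEC genes had 18 higher and 27 lower of 108 (median -0.063), and processed transcripts 21 and 53 of 146. Neat1 and Xist, described above, are long noncoding RNAs, as is Kcnq1ot1, the noncoding RNA of an imprinted domain, which fell from 61.8 ± 6.84 to 27.4 ± 4.83 CPM.

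Changes were unevenly placed along the genome. On chromosome 15, 319 of 581 tested genes were higher and 69 lower (median 0.25), and on chromosome 6, 369 of 735 were higher and 102 lower (median 0.25). On chromosome 13, 75 of 547 were higher and 258 lower (median -0.24), and on chromosome 3, 110 of 723 were higher and 324 lower (median -0.19). Chromosome 8 had both, with 251 higher and 320 lower of 828, and 69.0% of its genes called. The medians of the same chromosomes with shMed4 #1, which shares the controls, were 0.19, 0.12, -0.093, -0.081 and -0.1 for 15, 6, 13, 3 and 8. Such shifts move with several results above, among them Cdh11 and Dpep3, whose neighbours had medians of -0.62 and -0.65. With the neighbours' median subtracted, the log2 fold change of Itga5 went from 0.68 to 0.28, that of Itgb1 from 0.88 to 0.46, that of Espl1 from 0.60 to 0.19 and that of Vim from -0.82 to -0.34. Gene dosage was not measured, and its part in these results was not tested.

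**Figure D5:**
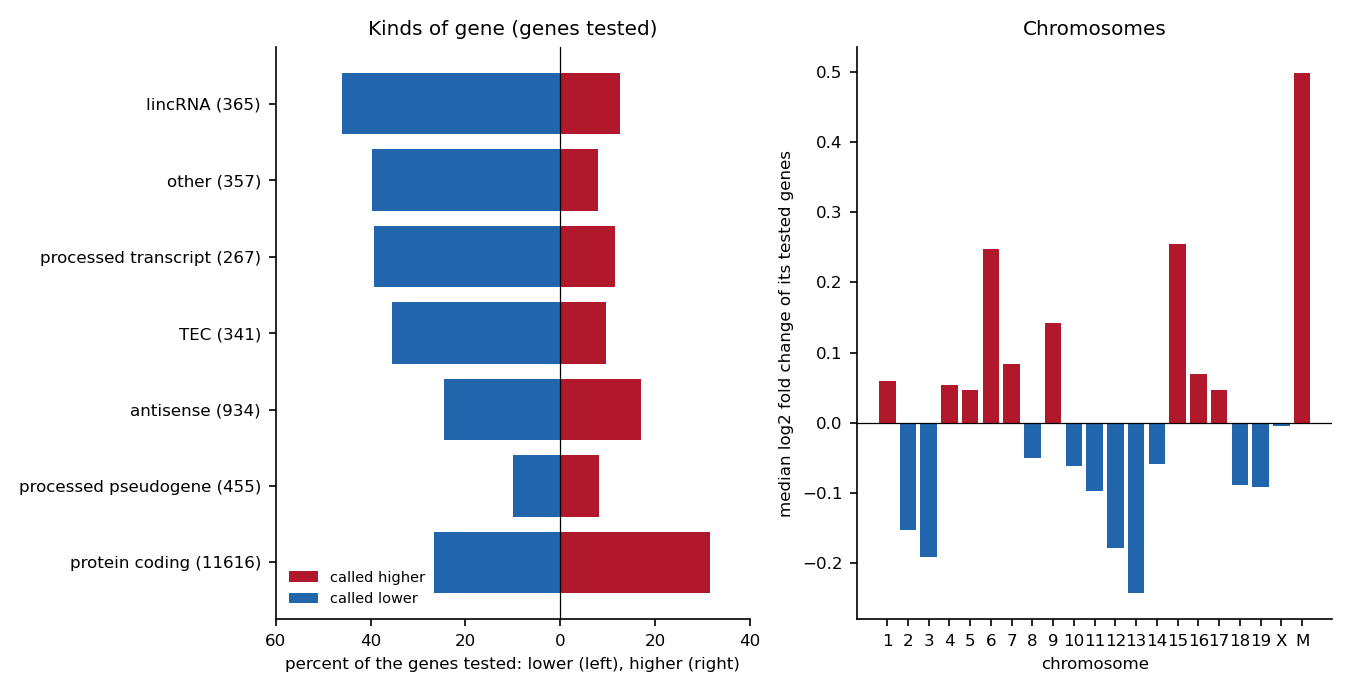
Left, percent of the tested genes of each annotated kind called higher (red) or lower (blue), with the number tested in parentheses. Right, median log2 fold change of shMed4 #4 over NTC of the tested genes of each chromosome, where chromosomes 6 and 15 stand near 0.25 and chromosome 13 at -0.24.

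The direct contrast of the hairpins called 28% of genes, 2029 higher and 1988 lower with shMed4 #4 than with shMed4 #1. Past 2-fold it was uneven, with 81 higher and 398 lower. Genes that passed the filter only because they are high with shMed4 #1 must be lower here, so this imbalance is no evidence by itself. Of genes higher than in NTC with shMed4 #4, 1725 differed between hairpins, and in 1617 of them shMed4 #4 was further from NTC. Of genes lower than in NTC, 1489 differed, and in 1460 shMed4 #4 was further from NTC. The genes were chosen by their shMed4 #4 change, so these counts are a description. Krt8 had log2 changes of 3.77 with shMed4 #4 and 2.28 with shMed4 #1 (difference 1.49, SE 0.0861, edgeR adjusted p = 2.34e-16). Areg had 2.37 and 0.85 (difference 1.52). The Rab GTPase activator Tbc1d16 rose from 8.95 ± 0.354 to 22.9 ± 1.69 CPM with shMed4 #4 and stood at 9.22 ± 0.195 CPM with shMed4 #1, and the small GTPase gene Gem rose from 5.26 ± 0.345 to 14.5 ± 0.488 CPM and stood at 6.07 ± 0.956 CPM with shMed4 #1. In the other direction, Prune2 had log2 changes of -3.49 and -0.92 (difference -2.57), the actin-binding Ablim1 had -2.27 and -0.33 (difference -1.95), and Lmx1b had -2.83 and -0.86 (difference -1.97).

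More Med4 transcript remained with shMed4 #4, as given above, while the changes of most of these genes were further from NTC with it. Adamts5 is a counterexample among the largest rises, at 3.86 with shMed4 #4 and 3.88 with shMed4 #1 (difference -0.026, SE 0.119, edgeR adjusted p = 0.902). Mgp and Myl9 had differences of -0.35 and -0.12 that did not pass the test (edgeR adjusted p = 0.0871 and 0.393). With 1 control hairpin and 2 Med4 hairpins, effects of Med4 loss and of each hairpin's other targets cannot be told apart in single genes.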

How the data were processed

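Total RNA of D2A1-d cells with NTC or Med4 hairpins was sequenced on a BGISEQ-500, per the labels. The authors deposited raw gene counts, 1 file per library. The submitters' processing notes name STAR and HTSeq as tools and mm10 and GRCm38 as builds. No source used here gives versions, the annotation release, poly(A) selection or the strand setting. The 5 summary lines of each file were left out: reads outside genes were 49.5 to 51.6% of all lines summed, and reads with no unique place 10.5 to 11.6%, so close copies are uncertain.

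The test was edgeR 4.0.16 in R 4.3.3 (filterByExpr, minimum count 10; TMM factors 0.969 to 1.03; glmQLFit and glmQLFTest, 3 groups, 9 libraries; common biological coefficient of variation 0.0433). Adjusted p is Benjamini-Hochberg over all 14335 genes tested. SE is the size of the log2 fold change divided by the square root of F. Pairs within NTC and within shMed4 #4 had chi-square values of 1.53 to 2.42 for each degree of freedom, above sampling noise, and each library counted as its own replicate. Precision from depth covers counting error only. Symbols (55154 of 55335 identifiers) and coordinates are from GENCODE M21 on GRCm38, promoters from RefSeq on GRCm38.p6.

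Genes were named by a rule: Med4 and the Mediator subunits; the 15 largest rises and 15 largest falls, the 10 largest CPM gains and losses and the 8 largest differences between hairpins each way, with a mean of at least 5 CPM over the 6 libraries, groups that do not overlap and no clone-like symbol; and up to 4 members of each of 56 gene lists by adjusted p. Exceptions are stated where they occur, and some named genes are not reported here. The members, lists and motifs were chosen with earlier results of these data known. Lists hold 1848 genes, of which 1371 were tested, and are described by counts and medians with no set test. Neighbour medians use up to 25 tested genes on each side.

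Alternatives were other tests (DESeq2 1.42.0, limma-voom 3.58.1), other scaling factors (DESeq2's, upper-quartile), other low-count filters, only the 6 libraries compared, the replicate number as a block, adjusted p under 0.01, leaving out each library and, added after seeing the data, no mitochondrial genes. Tested on simulated data made for this contrast (13956 genes), the fit recovered 92% of 2-fold changes and 65% of 1.5-fold changes and made 6 false calls. The simulation changed 100 genes by each fold, as many up as down and none at a low expected count. All its libraries otherwise shared the NTC profile. In the data 55.1% of genes were called, so these rates need not hold there.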

Additional observations from a re-analysis of the deposited data

Results flagged for a closer look

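Several genes were called in opposite directions with the 2 hairpins, and the direct contrast of shMed4 #4 with shMed4 #1 was past the threshold. The log2 difference was -3.61 for Gbp9 (mean ± SD over 3 libraries of 12 ± 1.13 CPM for the control hairpin, 1.68 ± 0.0566 for shMed4 #4 and 20.7 ± 2.83 for shMed4 #1), -3.13 for Gbp3 and -3.55 for the proteoglycan gene Vcan (13.4 ± 0.383, 3.12 ± 0.701 and 36.6 ± 4.47 CPM). It was -2.12 for the acute-phase gene Saa3 (19.8 ± 2.08, 11.5 ± 0.725 and 50.1 ± 3.49 CPM), -1.77 for Hist1h1c and -1.50 for Igf2r (42.7 ± 2.22, 18.7 ± 2.06 and 52.9 ± 2.9 CPM). For Polr2a, the largest subunit of RNA polymerase II, it was -0.52 (286 ± 15.8, 235 ± 7.05 and 337 ± 22.2 CPM). It was -2.29 for Gbp7, -1.79 for Isg15, -2.77 for the tropomyosin gene Tpm2 (3.69 ± 0.854, 1.52 ± 0.571 and 10.5 ± 0.833 CPM) and -0.48 for Dnajb9. In each of these genes shMed4 #4 was below NTC and shMed4 #1 above it.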

How the results depend on the processing

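No count of genes called for shMed4 #4 against NTC moved by more than 1.5 times under the alternatives run. Leaving out each NTC or shMed4 #4 library in turn gave 3654 to 3844 genes higher and 3541 to 3646 lower, and at least 2-fold 655 to 701 and 960 to 1031. DESeq2 gave 3570 and 3306, limma-voom 3979 and 3895, no low-count filter 4193 and 3937, and only the 6 libraries compared 4040 and 3834. Upper-quartile factors gave 3484 and 4452, so that 43.9% of calls were higher in place of 50.5%, and moved the median of all genes from -0.013 to -0.058. Without mitochondrial genes, chosen after seeing the data, the counts were 4012 and 3875. Med4 stayed on its side of the threshold in each alternative. Of 112 list counts, 4 moved by more than 1.5 times with upper-quartile factors and 0 with the replicate block. Of 56 list medians, 19 moved by more than their spread between replicates with upper-quartile factors. Among the genes named, Isg15, Cfp, Flna, Cdkn1a, Cdkn2b and Cdkn2d lost their call under 1 or more alternatives. With the median of the neighbours on the chromosome subtracted, 137 of 204 named genes moved by more than the spread between replicates, 63 did not and 4 changed sign: Cfp (-0.045), Flna (0.051), H1f0 (-0.0032) and Herpud1 (0.31).

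With the replicate number as a block (replicate block), 3949 genes were higher and 3858 lower, and it changed no call of the genes named. Deviations of same-numbered NTC and shMed4 #4 libraries correlated at -0.091, 0.073 and -0.17 over 10405 genes, and those of differently numbered pairs at -0.128 to 0.201. With 3 libraries in each group, these values cannot show whether a number stands for a shared batch. Not every library correlated best with its own number.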
